A study of Mus musculus with 6 samples.

Results

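The transcriptome of the intact mouse colon was described from 3 wild-type libraries of a series of 6. The members were chosen by genotype label alone, as the 3 columns of the deposited abundance table named for wild-type mice. The other 3 libraries come from TNFR1-/- mice, which lack a receptor for tumour necrosis factor, and were not compared here. The wild-type animals were males of 12 weeks, labelled C57Bl/6J for strain, and the series' design text gives 3 mice per genotype, so each library is taken as 1 mouse. RNA came from the whole colon, and its polyadenylated fraction entered libraries by the SMARTer Universal Low Input protocol. Reads were paired, 50 bases each, with 30M per sample on average. No treatment is named.

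The colon wall is a tube of layers. A simple epithelium of absorptive colonocytes, mucus-producing goblet cells and hormone-producing cells is renewed from stem cells at the base of crypts. Below it lie a connective tissue rich in immune cells and vessels, and then a thick coat of smooth muscle paced by interstitial cells of Cajal and controlled by enteric neurons and glia. At its end the colon meets the anal canal, where squamous epithelium, skin with hair and skeletal muscle of the sphincter and pelvic floor lie within a short distance. RNA from a whole colon mixes all of these in proportions that a dissection sets.

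Levels are given as TPM, a share of all transcripts corrected for their length, with an equal sum in every library, so different genes can be compared on it. The read depth behind each value is unknown, and no counting interval is given. Errors are the SD over 3 mice, and for levels they are taken on TPM as deposited. With 1 group there is no contrast to test, and each statement below is a description of these libraries. In a bulk sample, fewer cells of a type and less RNA per cell cannot be told apart.

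Replicate 2 stood apart before any gene was considered. Transcripts that the table assigns to no gene held 4.05, 27.4 and 2.79% of all TPM in replicates 1, 2 and 3. A pair of such transcripts alone held 3.43, 26.9 and 2.17%. Because TPM sums to a fixed total, this lowers every other value of replicate 2, and median-of-ratios factors were 1.14, 0.793 and 1.11. Comparisons between libraries therefore use TPM divided by these factors, called scaled values, while levels are printed as deposited. The SD of a level thus includes this library-wide difference and is no measure of variation between mice alone. After scaling, the SD had a median of 7.29% of the mean among genes averaging 5 TPM or more. Where values of different genes are said to overlap, TPM as deposited is meant. Log2 levels correlated across 14335 genes with Pearson's r between 0.971 and 0.985 for the 3 pairs of libraries, where genes are not independent replicates.

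The wild-type colon expressed 14335 of 30330 genes at a mean of at least 1 TPM, the level taken as detected. Of these, 13690 were protein-coding, and 13452 genes reached 1 TPM in each of the 3 libraries. Another 7864 genes were listed at 0 TPM in each library. Abundance was concentrated in few genes: 8381 had a mean of at least 10 TPM, 1252 at least 100 TPM and 124 at least 1000 TPM. The 100 highest genes held 34.3, 38.2 and 36.4% of the TPM of all genes. On the same basis ribosomal protein genes supplied 10.3, 9.32 and 10.2%, and the 13 protein genes of the mitochondrial genome 11.2, 12.7 and 11.8%. Of all TPM, transcripts without a gene included, the mitochondrial genes held 10.7, 9.19 and 11.4%, so replicate 2 is highest on the first basis and lowest on the second. The highest of these genes was mt-Co1, a subunit of cytochrome c oxidase, with 21739, 18507 and 25747 TPM.

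The nuclear gene with the highest level was Sprr2a2 (ENSMUSG00000068893, chr3:92215920-92256724 on GRCm38), a small proline-rich protein secreted by goblet cells and active against Gram-positive bacteria. It measured 27987, 27248 and 39246 TPM, and its 3 values lay above those of every other nuclear gene. Nearly all of that was assigned to transcript Sprr2a2-202, with 31225 TPM on average. Sprr2a is a group of near-identical neighbours. Each of the 692 stretches of 31 bases in this transcript also occurs in another Sprr2a transcript, Sprr2a2-201 of the same gene being among those compared. Of the stretches in Sprr2a1-201, 95.4% occur in a transcript of Sprr2a2 or Sprr2a3. The level of Sprr2a2 is therefore taken as a value for the group, and how it divides between Sprr2a1, Sprr2a2 and Sprr2a3 is uncertain.

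Lypd8 (ENSMUSG00000013643, chr11:58379043-58390728) came next among the nuclear genes. It encodes an anchored protein of the colonocyte surface that binds flagellated bacteria, and it measured 9496, 8188 and 10864 TPM. Other products that act at the boundary with the gut content were also among the 30 highest nuclear genes. Zg16, a lectin of the mucus layer that binds Gram-positive bacteria, had 3156 ± 511 TPM (SD, n = 3), and the trefoil peptide gene Tff3 had 2078 ± 346 TPM. The epithelial genes Lgals4, a galectin, and Krt8, a keratin of simple epithelia, reached 3734 ± 618 and 3646 ± 632 TPM. Smooth muscle entered the same list through Tagln, the actin-binding transgelin, with 2467 ± 430 TPM, and through Myl6, a myosin light chain found in smooth muscle and other cells, with 3110 ± 573 TPM. Crip1, a LIM-domain protein, reached 3546 ± 527 TPM, the peroxiredoxin Prdx6 reached 3756 ± 631 TPM, and S100a6, a calcium-binding protein, reached 2818 ± 433 TPM. Sycn, known from secretory granules of the pancreas, measured 2987, 2323 and 3471 TPM.

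The rest of the 30 were mostly genes of general cell function. They included Eef1a1 and Tpt1, Fth1 for ferritin, Gapdh, Ppia and the ribosomal protein genes Rplp0, Rplp1, Rps14, Rps18, Rps24, Rpl26 and Rpl32. Gm28661, Gm10275 and Rps12-ps3 are annotated as, or named for, pseudogenes, and their values may be shared with their source genes. Lars2, which encodes the mitochondrial leucyl-tRNA synthetase, had place 4 by its mean, but its values were 2249, 15544 and 1468 TPM. It was 8.36 times as high in replicate 2 as in the mean of the other libraries, close to the ratio of 8.32 of the more abundant transcript without a gene. Gm20594 and AA474408 showed ratios of 5.91 and 7.35. All 3 genes were high in replicate 2 alone, and a link to the pair without a gene was not tested.

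**Figure D1:**
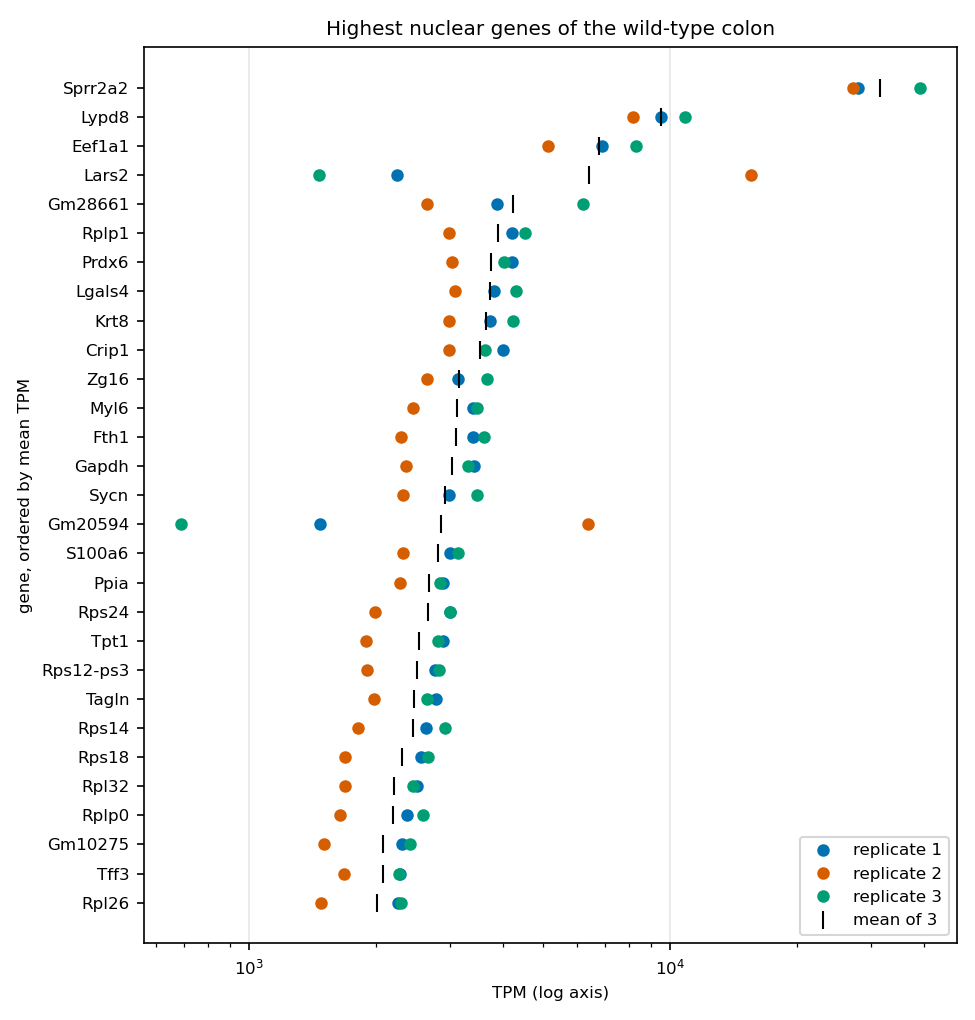
TPM on a log axis for the genes named in the text among the 30 nuclear genes with the highest mean; coloured points are the 3 wild-type libraries and black bars their mean. Sprr2a2 lies apart from the rest, replicate 2 is lowest for most genes, and Lars2 and Gm20594 are the exceptions, with 15544 and 6390 TPM in that library.

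Cell types were read from lists of marker genes, each summarised as the geometric mean of TPM + 0.5 over its members in the table. The general epithelium list stood highest, with 443, 326 and 461, followed by absorptive colonocytes with 251, 216 and 279 and contractile smooth muscle with 288, 177 and 232. These last values overlapped between the lists. The ratio of the epithelial to the smooth muscle geometric mean was 1.54, 1.84 and 1.99, or 1.79 ± 0.23 (SD, n = 3), so epithelial markers were higher in each library. As a ratio of summed TPM it was 1.22 ± 0.12. The labelled tissue thus carried the defining markers of colon epithelium and muscle.

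All 15 general epithelial genes were detected. Below Lgals4 and Krt8 came Krt19, a keratin of simple epithelia, with 1796 ± 384 TPM, Phgr1 with 1383 ± 255 TPM and the adhesion molecule gene Epcam with 907 ± 158 TPM. The tight junction genes Cldn7 and Cldn3 followed with 551 ± 77.5 and 391 ± 67.3 TPM. Among the transcription factors that specify intestinal epithelium, Hnf4a averaged 271 TPM and Cdx1 173 TPM, while Cdx2 averaged 8.55 TPM.

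Absorptive colonocyte genes were likewise present throughout, with 18 of 18 detected in each library. After Lypd8 the highest were Car1 and Car4, enzymes that hydrate carbon dioxide, with 1030 ± 148 and 982 ± 105 TPM, a pair whose values overlapped. Saa1, an acute-phase protein made by colon epithelium, had 897, 660 and 1297 TPM, and Cyp2c55, a cytochrome P450, had 784 ± 134 TPM. Guca2a, the precursor of the hormone guanylin, reached 580 ± 78.5 TPM. The water channel Aqp8 had 375 ± 47.7 TPM, the chloride-bicarbonate exchanger Slc26a3 averaged 322 TPM, and the sodium-proton exchanger Slc9a3 averaged 3.49 TPM.

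Goblet cell genes spanned a wider range of levels. Zg16 and Tff3 were followed by the kallikrein Klk1 with 1122 ± 249 TPM and by Agr2, a disulfide isomerase that folds mucins, with 956 ± 192 TPM. Spink4 had 674 ± 96.8 TPM, and Muc2, the gel-forming mucin of the mucus layer, measured 570, 473 and 884 TPM. The values of Spink4, Muc2 and Clca1 overlapped, so no order is read among them. The lineage factor Atoh1 averaged 26.1 TPM and Spdef 11.2 TPM. Retnlb, a goblet cell protein that is induced by bacteria, averaged 0.0855 TPM, the lowest of the 16 members.

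Markers of crypt stem cells and of proliferation were found at much lower levels, and RNA from the whole wall does not locate them. Lgr5, the receptor that defines the crypt stem cell, averaged 2.72 TPM and Ascl2, its transcription factor partner, 4.44 TPM. Slc12a2, a chloride transporter of the lower crypt, led the list with 61.8 ± 8.63 TPM, and Cdca7, Rgmb, Sox9, Smoc2 and Myc followed with means between 19.0 and 39.8 TPM. Olfm4, a stem cell marker of the small intestine, averaged 0.0129 TPM. All 12 proliferation genes reached 10 TPM, from Rrm2 at a mean of 14.6 TPM to Stmn1 at 164 ± 20.2 TPM. The keratin Krt20, which marks differentiated colonocytes, was 20.1, 19.1 and 24.95 times as abundant as Mki67, a marker of cycling cells.

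Hormone genes of the distal gut led the enteroendocrine list. Pyy, which encodes peptide YY, measured 170.0, 113.9 and 159.1 TPM. Insl5, a hormone of colonic L cells, followed with 78.7 ± 24.1 TPM and Gcg, the source of glucagon-like peptides, with 42.3 ± 9.86 TPM. The ratio of Pyy to Gcg was 3.35, 3.62 and 3.55. The granule genes Chgb and Chga had 32.2 ± 6.44 and 23.3 ± 5.34 TPM, somatostatin (Sst) had 12.3 ± 4.85 TPM, and Cck, a hormone of the upper small intestine, averaged 1.62 TPM. Tuft cell markers were scarce: 8 of 12 were detected on average, led by Ltc4s with 7.56 ± 1.61 TPM, and Dclk1 had 2.23 ± 0.53 TPM.

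Smooth muscle markers were the highest after those of the epithelium. The 18 contractile genes were all detected in each library. The actin filament protein Tpm2 had 1902 ± 424 TPM, the enteric actin Actg2 1538 ± 216 TPM, the vascular and visceral actin Acta2 1483 ± 280 TPM, and the regulatory light chain Myl9 1436 ± 218 TPM. Within each library Actg2 exceeded Acta2 slightly, by a ratio of 1.01, 1.11 and 1.01, while the values of the 2 genes overlapped between mice. Desmin (Des), the intermediate filament of muscle, reached 650 ± 144 TPM and the smooth muscle myosin Myh11 619 ± 123 TPM, and these overlapped too.

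Pacemaker and nerve markers were present at lower levels. Ano1, the chloride channel of interstitial cells of Cajal, had 161, 160 and 226 TPM, whereas the receptor Kit, which defines the same cells, had 9.33 ± 1.1 TPM. Ano1 is also expressed by epithelia. Of 18 enteric neuron genes, 17 were detected in each library, led by the neuropeptide genes Vip with 25.7 ± 5.39 TPM and Tac1 with 22.4 ± 3.80 TPM, and by Uchl1 with 21.4 ± 5.16 TPM. Nos1, the enzyme of inhibitory motor neurons, averaged 3.10 TPM and Chat, that of cholinergic neurons, 0.351 TPM. The glial genes Gfap, S100b and Sox10 ranged from 1.97 to 2.17 TPM on average. Erbb3, which heads that list with 84.9 ± 15.2 TPM, is also a gene of colon epithelium.

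Connective tissue was led by Dcn, which encodes decorin, with 272 ± 44.3 TPM and by the collagen Col3a1 with 253 ± 42.8 TPM. Col3a1 was 5.78, 6.07 and 5.56 times as high as Col1a1. Dpt, Adamdec1, Col1a2 and Col6a1 followed with means from 68.3 to 121 TPM, and the crypt niche factors Grem1 and Rspo3 averaged 33.5 and 6.76 TPM. Blood endothelium was marked by Plvap with 35.6, 22.6 and 34.9 TPM and Pecam1 with 19.6 ± 3.95 TPM. Lymphatic vessels were marked by Ccl21a with 62.4 ± 10.8 TPM and Lyve1 with 15.6 ± 4.78 TPM, and pericytes by Rgs5 with 40.3 ± 8.14 TPM.

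Immune markers were low in RNA from the whole wall. Among plasma cell genes, the light chain constant gene Igkc measured 110, 107 and 194 TPM and the IgA heavy chain gene Igha 36.0, 33.9 and 68.8 TPM. Both were highest in replicate 3. Xbp1 and Sdc1 had 104 ± 22.3 and 111 ± 33.0 TPM, but epithelium expresses these as well. Igha was 2.41, 2.76 and 3.68 times as high as Ighm, the IgM gene. Macrophage genes included Lyz2 with 164 ± 34.4 TPM and the complement genes C1qa, C1qb and C1qc with means from 29.3 to 32.0 TPM. Of 16 T and NK cell genes, 5 were detected on average, and the T cell receptor component Cd3e averaged 0.355 TPM. Mast cell markers were near the detection level, with Cma1 the highest at 5.36 ± 1.30 TPM.

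Ly6g, often used to mark neutrophils, measured 175, 137 and 184 TPM, at odds with the other genes of its list. S100a8 and S100a9 had 10.7 ± 3.11 and 8.52 ± 3.11 TPM, the neutrophil enzymes Mpo and Elane averaged 0.0897 and 0.0155 TPM, and Ngp and the eosinophil peroxidase gene Epx were listed at 0 in each library.

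**Figure D2:**
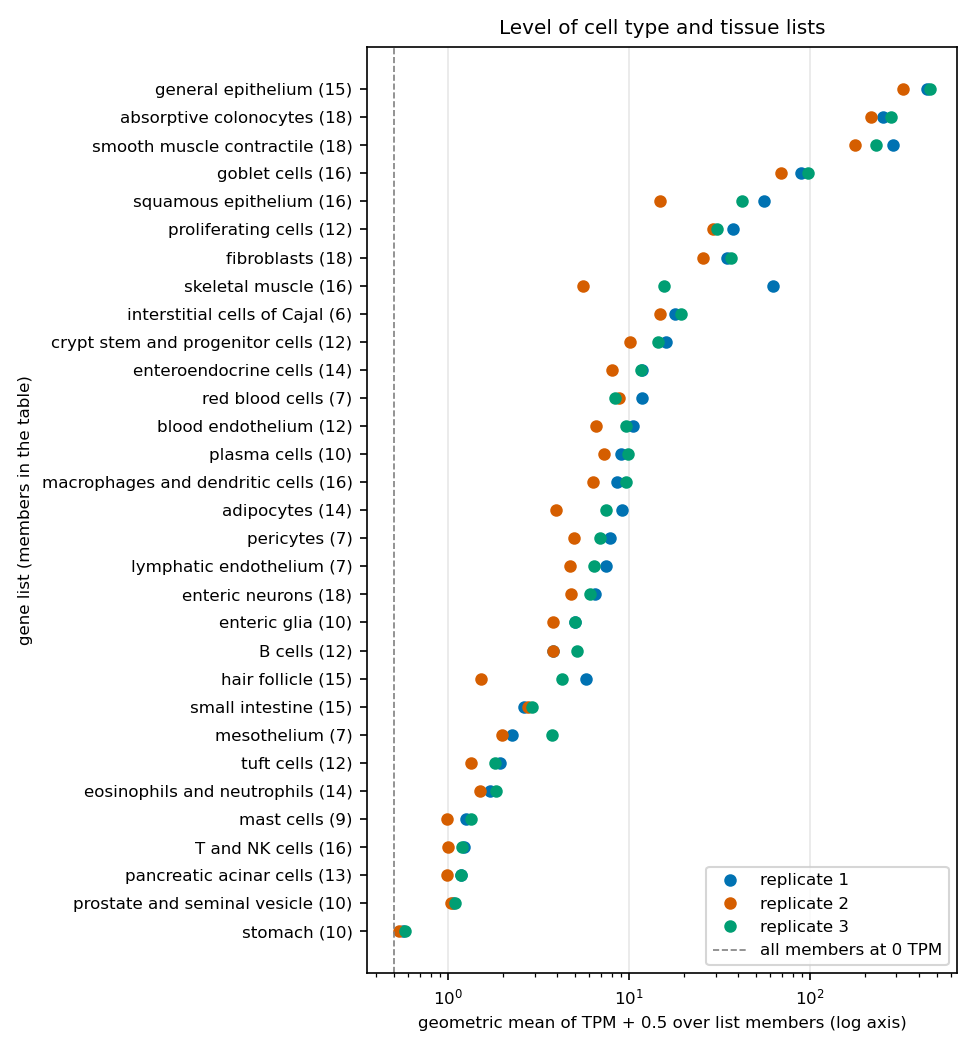
Geometric mean of TPM + 0.5 on a log axis for 31 lists of cell type and tissue markers, with the number of members in the table in brackets and 1 point per library. The general epithelium list lies highest at 326 to 461; the skeletal muscle list spreads from 5.57 to 62.5 between libraries, and the dashed line marks a list whose members are all at 0.

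Markers of neighbouring organs gave a check on the dissection. The stomach list lay at the floor, with 0 of 10 members detected and Gkn1, Gkn2 and Tff1 at 0. Of the accessory sex gland genes, Svs2, Svs3a, Svs4, Svs5, Svs6 and Pbsn were listed at 0 in each library, while Spink1, a trypsin inhibitor, had 866 ± 176 TPM. In the pancreatic list, the enzyme genes Prss1, Cpa1, Pnlip and Amy2b were at 0, and Cela1 had 514 ± 85.7 TPM. Both Spink1 and Cela1 are therefore single high members of lists that are otherwise near 0. The mesothelial markers Msln, Wt1 and Upk3b averaged 0.417, 0.209 and 0.570 TPM, and Krt19, the high member of that list, is an epithelial keratin. Small intestine genes were mixed: Rbp2 had 120 ± 21.5 TPM, the fatty acid binding gene Fabp2 18.2 ± 2.01 TPM and the Paneth cell lysozyme Lyz1 14.3 ± 2.66 TPM, whereas Lct, Alpi, Reg3b and Apoa4 averaged under 1 TPM.

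Position along the gut was read from Hox genes, which pattern the body axis so that higher numbers mark more posterior tissue. The colon profile was posterior: genes numbered 9 to 13 held 85.0% of all Hox TPM, and the 4 genes numbered 13 alone held 50.0%. Hoxb13 was the highest with 211, 147 and 213 TPM, and Hoxd13 followed with 125, 92.3 and 114 TPM. Hoxa11, Hoxa9 and Hoxa10 had 69.8 ± 17.7, 52.7 ± 11.5 and 48.3 ± 12.6 TPM. Within the B cluster Hoxb13 stood alone, at 12.7, 12.7 and 13.5 times the level of Hoxb9, the next highest. The C cluster was lowest: 0 of its 9 genes averaged 1 TPM, and its mean sum was 2.70 TPM, against 282, 222 and 160 TPM for the A, B and D clusters. By replicate the sum of the C cluster was 5.0, 0.897 and 2.22 TPM, and its mean without replicate 1 was 1.56 TPM. Hoxc10 and Hoxc6 reached 1.41 and 1.07 TPM in replicate 1 alone.

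**Figure D3:**
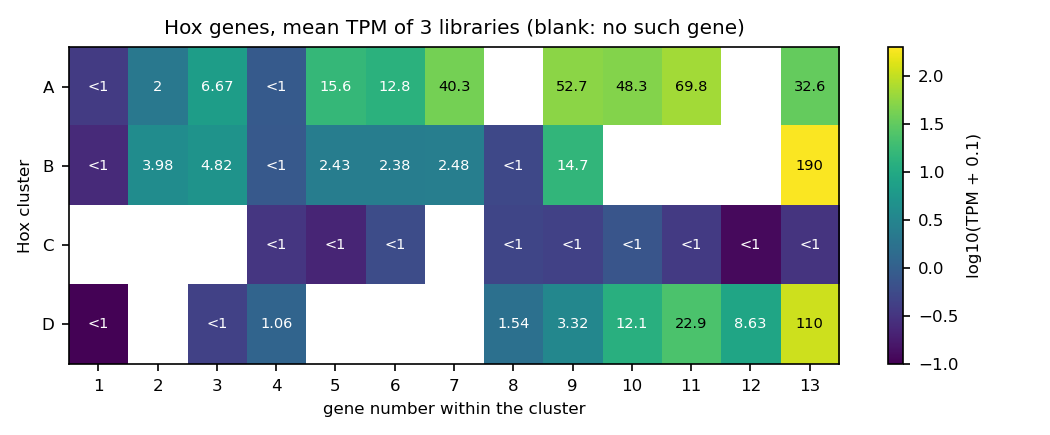
Mean TPM of each Hox gene over the 3 libraries, by cluster and by number within the cluster, coloured on a log10 scale. Number 13 is the highest in clusters B and D, cluster A is high from number 9 to 11, and every gene of cluster C averages below 1 TPM.

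Markers of both ends of the colon were found together. Of 12 proximal genes 11 were detected, led by the lectin-like Mptx1 with 1413, 924 and 1806 TPM and the membrane mucin Muc13 with 1260 ± 234 TPM. Among the distal genes in the table, 10 of 11 were detected, led by Prdx6 and by Tgm3, a transglutaminase, with 428 ± 95.9 TPM. The scaled levels of the proximal list spanned 1.08-fold between libraries and those of the distal list 1.04-fold.

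Gene families, grouped by name after the levels of the lists had been seen, were dominated by few members. Krt8 held 51.2% of the TPM of 54 keratin genes, and with Krt19 76.4%. Muc3, Muc13 and Muc2 held 99.0% of the TPM of 12 mucins, Muc3 being a membrane mucin of the brush border with 1382 ± 301 TPM. Car1, Car4 and Car2 held 92.7% of that of 16 carbonic anhydrases, Aqp8 82.0% of that of 11 aquaporins, and Cldn7, Cldn3 and Cldn8 81.9% of that of 34 claudins. Krt8 exceeded its usual filament partner Krt18 by 10.9, 13.7 and 13.2 times.

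Most genes were steady between the 3 mice. Among 10641 genes averaging 5 TPM or more, the ratio of the highest to the lowest scaled value + 0.5 had a median of 1.14. It reached 2 in 302 genes, or 2.84%, and 10 in 40 genes. With 1 library left out, and the factors computed anew, the count became 162 without replicate 1, 97 without replicate 2 and 269 without replicate 3. Just inside the limit lay St3gal4 at 2.008-fold and Fnip2 at 2.005-fold, and just outside it Lyrm9 at 1.99-fold and the clock gene Nr1d1 at 1.98-fold. Of the 302, 64 were predicted genes, pseudogenes or immunoglobulin segments and are counted only.

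Among the 302 genes 1 pattern was the most frequent: 189 were highest in replicate 1 and lowest in replicate 2. How many of all 10641 genes share this order is not given. Some genes with the pattern passed the 5 TPM limit through replicate 1 alone, such as Lce1m with 13.6, 0.402 and 2.63 TPM. Leaving aside predicted genes, pseudogenes and immunoglobulin segments, 174 genes had this pattern. Of these, 30 were members of the skeletal muscle, squamous epithelium or hair follicle lists and 41 others were keratin, keratin-associated or late cornified envelope genes by name. The remaining 103 belonged to neither set. Of the 25 named genes with the largest ratio, 23 had this pattern, and the other 2 were Lars2 and AA474408.

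Skeletal muscle genes varied most. Myh1, a fast skeletal myosin, measured 121, 4.63 and 27.7 TPM, a 16.9-fold range of scaled values. The calcium buffer of fast fibres Pvalb had 46.7, 1.67 and 6.87 TPM (16.0-fold), and the skeletal actin Acta1 had 496, 23.0 and 104 TPM (14.8-fold). For each of these genes the 3 libraries lay far apart, and by difference in TPM replicate 3 was nearer to replicate 2 than to replicate 1. By the ratio of the printed values this does not hold for Myh1. The fast troponin genes Tnnc2, Tnnt3 and Tnni2 showed 12.4, 12.1 and 13.4-fold ranges, with Tnnc2 at 837, 46.6 and 168 TPM. Other named genes of the same kind were the myosins and light chains Myh8, Myl1, Myl3 and Mylpf, the oxygen store Mb, the Z-disc proteins Csrp3, Tcap, Myot, Actn2 and Myoz1, the calcium handling genes Atp2a1, Sln and Casq1, the ribosomal variant Rpl3l and the carbonic anhydrase Car3, with ranges from 8.84 to 14.7-fold. All 13 members of the skeletal muscle list with at least 5 TPM reached a 2-fold range. The summed TPM of the list was 3674, 223 and 781, and the median of its scaled members spanned 10.2-fold.

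Squamous and hair follicle genes showed the same order of libraries with smaller ranges, except 1 squamous gene that was highest in replicate 3 after scaling. Krt5 and Krt14, keratins of basal squamous cells, measured 104, 14.9 and 69.8 TPM and 149.5, 31.5 and 114 TPM. Flg, which encodes the skin barrier protein filaggrin, had 181, 41.9 and 92.9 TPM. Krt13 and Krt4, a keratin pair of wet squamous epithelium, had 99.9, 33.9 and 88.4 TPM and 75.6, 24.4 and 69.2 TPM. In this list 12 of 13 members with at least 5 TPM reached 2-fold, and the exception was Perp, which epithelia of the gut also express. The list spanned 2.91-fold. The hair list spanned 3.44-fold, and 6 of 6 members reached 2-fold, among them the inner root sheath genes Krt71 with 29.9, 4.46 and 18.3 TPM and Tchh with 15.8, 2.52 and 9.81 TPM. Keratin-associated proteins, which build the hair shaft, summed over 55 genes to 783, 99.3 and 622 TPM. Lce1m and Krtap19-2 from these groups were also among the 25 named genes.

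The 3 lists differed in how replicate 3 stood. Skeletal muscle spanned 4.44-fold between replicates 1 and 3 when replicate 2 was left out, whereas the squamous and hair lists then spanned 1.33 and 1.29-fold, under 2-fold. Between replicates 2 and 3, without replicate 1, the spans were 2.21, 2.06 and 2.20-fold. Replicate 3 thus resembled replicate 1 in skin and hair genes but not in skeletal muscle genes. In the fat list, 2 of 6 members with at least 5 TPM reached 2-fold. They were Car3, which muscle expresses as well and which is named above with the skeletal muscle genes, and the complement factor gene Cfd. Cfd had 46.9, 13.8 and 33.7 TPM and the lipid carrier Fabp4 88.3, 34.2 and 66.6 TPM.

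Lists for the layers of the colon wall held few genes with a 2-fold range. Of all genes averaging 5 TPM or more, 2.84% reached that range. In lists this short such counts lie near that share, and no steadiness particular to these layers is read from them. No gene with at least 5 TPM in the general epithelium, absorptive colonocyte, goblet, stem, proliferation or enteroendocrine lists reached a 2-fold range. Contractile smooth muscle had 1 such gene of 18, Ldb3, which skeletal muscle expresses as well, and its list spanned 1.15-fold. The fibroblast list had 1, Pi16 with 11.8, 4.26 and 13.7 TPM. The enteric glia list had 1 of only 3 members with at least 5 TPM, highest in replicate 1. The blood endothelium list spanned 1.17-fold, and 0 of its 8 members with at least 5 TPM reached 2-fold. The general epithelium list spanned 1.09-fold and the 14 reference genes 1.08-fold. Anal and pelvic tissue in the dissected piece was not recorded in the labels, and the part of dissection in these differences was not tested.

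**Figure D4:**
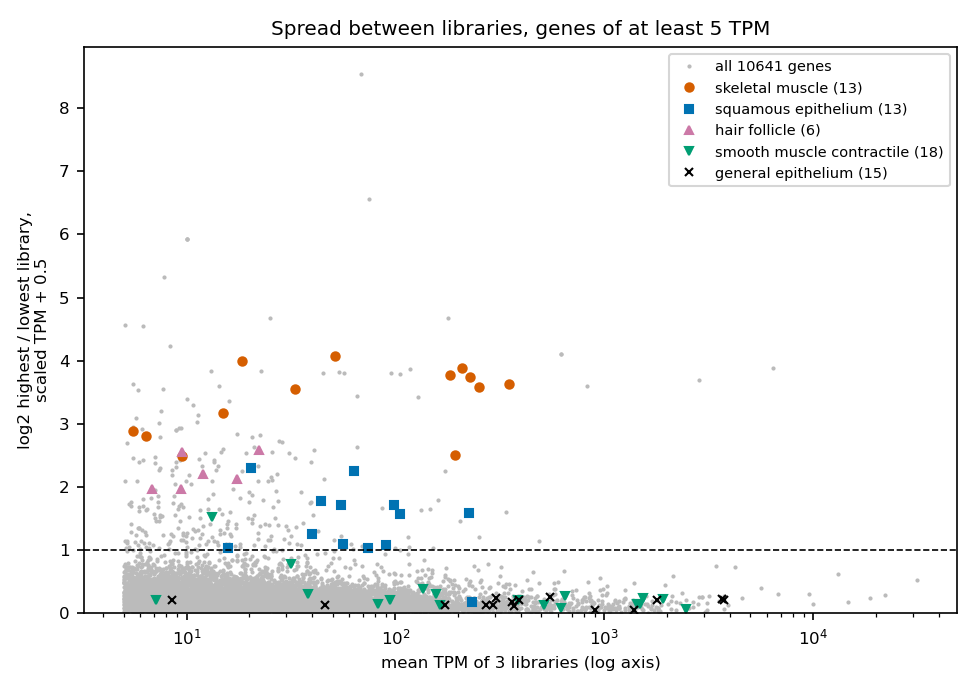
Each point is a gene averaging 5 TPM or more, by its mean TPM on a log axis and the log2 ratio of its highest to its lowest scaled library. Skeletal muscle genes lie between 2.5 and 4.08, all above the dashed 2-fold line, while general epithelium genes lie below it.

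Genes highest in replicate 2 or 3 formed smaller groups, described after their values had been seen. Of the other 238 variable genes, 41 were highest in replicate 2. Examples picked from their values were the guanylate-binding protein Gbp2, which had 13.2, 32.0 and 14.7 TPM (3.38-fold after scaling), the immunity GTPase Igtp with 7.17, 15.1 and 8.63 TPM (2.88-fold), and the nucleic acid sensor Zbp1 with 11.3, 21.6 and 13.9 TPM (2.66-fold). Replicates 1 and 3 lay close together and replicate 2 above both. Tap1, which carries peptides to MHC class I molecules, the immunoproteasome genes Psmb8 and Psmb9, Irgm2 and Oasl2 were also highest in replicate 2, with ranges from 2.05 to 2.55-fold. Interferon is known to induce these genes, but no list of its targets was counted.

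Canonical histone genes were the other group. Their transcripts mostly end in a stem-loop rather than a poly(A) tail, and the libraries were made from polyadenylated RNA. Of 24 such genes averaging at least 5 TPM, 18 were highest in replicate 2 after scaling and 6 in replicate 1. Of these 24, 10 reached a 2-fold range, against 2.84% of all genes averaging 5 TPM or more. Among the 10, 9 were highest in replicate 2. Hist1h4d had 7.58, 22.8 and 3.40 TPM. Hist1h3c, with 2.65, 12.9 and 1.62 TPM, passed the 5 TPM limit through replicate 2 alone. Proliferation genes spanned 1.34-fold between libraries, and none of the 12 reached 2-fold. After scaling 11 of the 12 were highest in replicate 2. So were 13 of 18 absorptive colonocyte genes, against 5 of 18 contractile smooth muscle genes. The share of all genes highest in replicate 2 is not given. No trait particular to histone or proliferation genes is therefore read from the counts of genes highest there. Summed TPM of the proliferation genes as deposited was 636, 493 and 514, highest in replicate 1.

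Among the 21 of these 238 genes that were highest in replicate 3 were Ppbp, a platelet chemokine, with 21.2, 5.93 and 32.9 TPM, Ltf, which encodes lactoferrin, with 5.25, 2.01 and 11.3 TPM, and Psca with 24.4, 7.53 and 37.9 TPM. The immediate early gene Fos had 89.6, 75.2 and 181.9 TPM. In all 4 the value of replicate 3 was the highest, also before scaling.

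Transcript use was described in 6195 genes that had 2 or more transcripts and averaged 10 TPM or more. A single transcript held at least 50% of the gene's mean TPM in 70.3% of them and at least 90% in 20.3%, and the median share of the leading transcript was 64.4%. The same transcript led in all 3 libraries in 90.1% of genes and another one in at least 1 library in 614 genes. Leaders were annotated as protein-coding in 90.2% of genes, as retained introns in 3.26% and as targets of nonsense-mediated decay in 2.24%. They were principal isoforms by the APPRIS annotation in 72.3%. Reads shared by transcripts are divided by a model, so each share is an estimate whose own error the table does not give.

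Smooth muscle isoforms were seen in Tpm1. Tropomyosins wrap the actin filament, and many Tpm1 transcripts use 1 of 2 alternative second exons, of which 1 is typical of smooth muscle. The smooth muscle form Tpm1-215 held 56.2, 73.2 and 65.4% of Tpm1 TPM, and Tpm1-205, which carries the exon used in striated muscle and many other cells, held 21.1, 3.07 and 6.72%. Exon 2 of both has 126 bases and lies on the minus strand of chromosome 9, at chr9:67048124-67048249 for Tpm1-215 and chr9:67047786-67047911 for Tpm1-205 (GRCm38). The exons are shown because their choice separates these forms, with bases that differ between the aligned pair in capitals; 60 of 126 positions are identical (47.6%).
Tpm1-215 exon 2: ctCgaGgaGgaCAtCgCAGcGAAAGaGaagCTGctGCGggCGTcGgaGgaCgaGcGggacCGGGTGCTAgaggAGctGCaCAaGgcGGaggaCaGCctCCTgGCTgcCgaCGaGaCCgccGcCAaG
Tpm1-205 exon 2: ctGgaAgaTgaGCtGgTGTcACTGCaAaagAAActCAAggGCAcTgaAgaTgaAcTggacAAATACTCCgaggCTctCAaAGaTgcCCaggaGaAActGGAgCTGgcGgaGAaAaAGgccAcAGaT

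Summed over every transcript that holds one exon or the other, the 3 transcripts with the smooth muscle exon had 1591, 1106 and 1345 TPM. The 11 with the alternative exon had 782, 94.4 and 266 TPM. These sets averaged 1347 and 381 TPM, of 1947 TPM for the gene. The rest was assigned to transcripts with neither exon at these positions. The smooth muscle exon thus made up 67.0, 92.1 and 83.5% of the pair, with the lowest share in replicate 1, where the skeletal muscle list was highest. Ldb3, a Z-disc protein of all muscle types, varied likewise: Ldb3-202 held 6.56, 56.9 and 33.3% and Ldb3-204 38.8, 15.7 and 31.2%. At a mean of 13.3 TPM these shares rest on low values.

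Pyruvate kinase offered a pair of exons in an enzyme gene. Pkm-201 encodes the M2 form, common in proliferating and epithelial cells, and Pkm-202 the M1 form of muscle and nerve. Pkm-201 measured 558, 495 and 586 TPM and Pkm-202 235, 147 and 196 TPM, so the M2 form held 70.4, 77.2 and 74.9%. Exon 9 of 11 differs between them and has 167 bases on the plus strand, at chr9:59675568-59675734 for Pkm-201 and chr9:59675029-59675195 for Pkm-202 (GRCm38). Both are printed to show the forms that the shares count, with differing bases in capitals; 103 of 167 positions are identical (61.7%).
Pkm-201 exon 9: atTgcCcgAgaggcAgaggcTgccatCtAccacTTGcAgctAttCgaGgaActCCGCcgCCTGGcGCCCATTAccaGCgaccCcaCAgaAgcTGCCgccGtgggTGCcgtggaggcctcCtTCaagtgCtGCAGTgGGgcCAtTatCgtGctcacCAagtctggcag
Pkm-202 exon 9: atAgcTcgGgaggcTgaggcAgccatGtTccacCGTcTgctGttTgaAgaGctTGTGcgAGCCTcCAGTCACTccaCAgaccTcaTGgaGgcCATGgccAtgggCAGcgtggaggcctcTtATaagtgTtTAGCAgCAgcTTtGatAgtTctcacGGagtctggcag

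**Figure D5:**
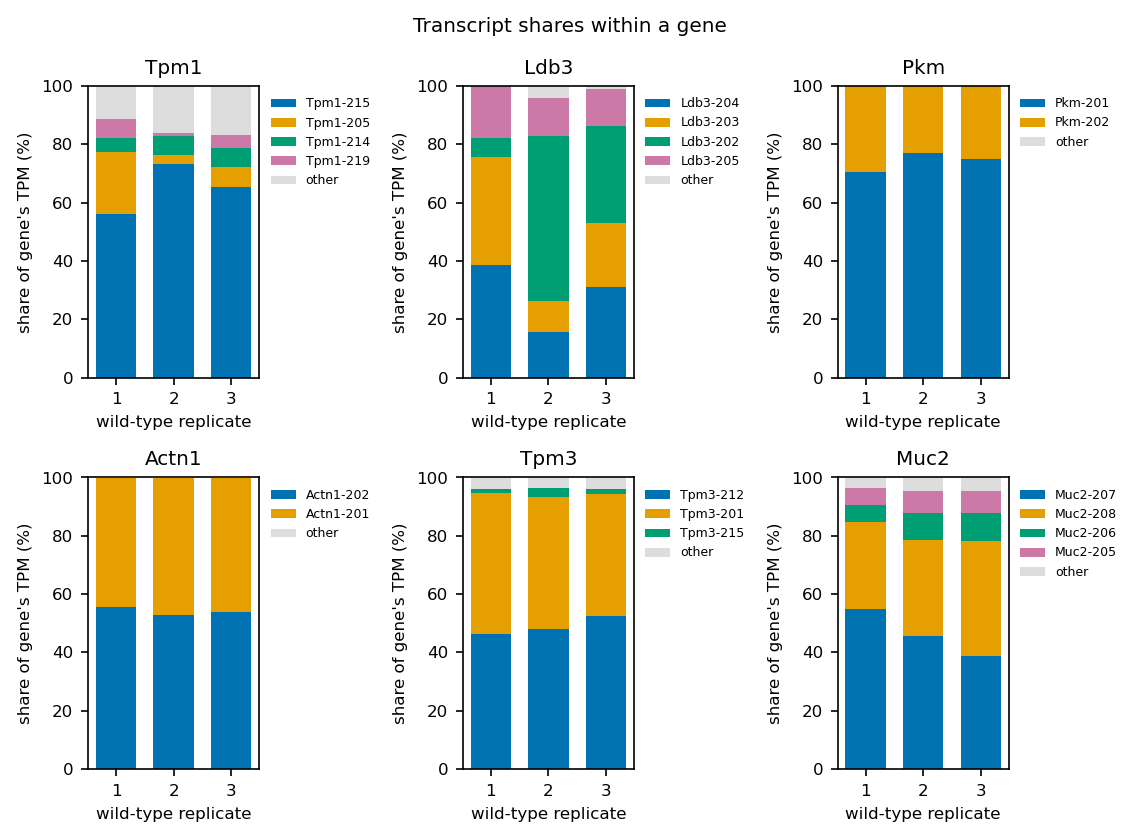
Stacked bars give the share of a gene's TPM held by each named transcript in the 3 wild-type libraries, in percent, with transcripts not named in grey. The share of Ldb3-202 runs from 6.56 to 56.9% and that of Tpm1-205 from 3.07 to 21.1%, whereas the shares of Actn1-202 stay between 53.0 and 55.6%.

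Other contractile genes ranged from nearly a single form to mixtures. Tpm2-203 held 97.7 ± 1.68%, Tpm4-201 98.0 ± 0.45%, the desmin form Des-201 96.1 ± 0.09%, the myosin light chain kinase form Mylk-201 99.8 ± 0.04% and Actg2-201 91.2 ± 0.83% (SD, n = 3). Myh11, Myl6, Acta2, Tagln and Vcl each had a value for 1 transcript in the table, so no share can be given. Actn1, which encodes an actin cross-linker, was split between Actn1-202 with 54.2 ± 1.34% and Actn1-201 with 45.8 ± 1.34%. For Tpm3, a retained-intron transcript, Tpm3-212, held 49.0 ± 3.12% and the coding Tpm3-201 45.0 ± 3.15%. The smoothelin gene Smtn was led by Smtn-203 with 50.5 ± 4.83%, Slmap by Slmap-215 with 32.3 ± 1.58%, and the caldesmon gene Cald1 by the short Cald1-210 with 43.3 ± 3.09%, ahead of Cald1-205 with 23.8 ± 1.48%.

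Epithelial genes on the same list ranged from single to mixed forms. Cdh1-201 held 98.1 ± 1.72% of E-cadherin and Muc13-201 97.9 ± 0.10% of Muc13, and Epcam had 1 transcript. Villin (Vil1) was led by Vil1-201 with 70.2 ± 3.11%. The splicing regulator Esrp1 was spread over Esrp1-204 with 43.0 ± 2.23%, Esrp1-203 with 30.2 ± 0.82% and Esrp1-206 with 19.1 ± 2.33%. Hnf4a was divided between Hnf4a-201 with 42.7 ± 5.52%, Hnf4a-205 with 28.6 ± 0.40% and Hnf4a-202 with 28.1 ± 5.73%. Ctnnd1, the p120 catenin, had its 2 leading forms Ctnnd1-207 and Ctnnd1-205 at 29.0 ± 1.29 and 28.0 ± 1.35%, which overlapped.

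The remaining members were mixtures. Cd44-207 held 41.1 ± 7.44% of the adhesion receptor Cd44 and the shorter Cd44-203 27.9 ± 8.72%. Fibronectin (Fn1) was led by a retained-intron transcript, Fn1-202, with 29.5 ± 3.56%, and the coding forms Fn1-203 and Fn1-214 held 16.5 ± 0.89 and 16.3 ± 2.63%. Epb41l5 was led by the retained-intron transcript Epb41l5-207 with 42.6 ± 1.30%, and Fgfr2, a growth factor receptor, had no form above 21.9 ± 3.06%.

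Muc2 was among the 10 genes above 50 TPM, of 128 with differing leaders, whose shares moved most. Muc2-207, of 2926 bases, held 54.9, 45.7 and 38.8% and the single-exon Muc2-208, of 447 bases, 29.7, 33.0 and 39.5%. The leader thus differed in replicate 3, narrowly, with 349 TPM for Muc2-208 against 343 TPM for Muc2-207. Whether these transcript models measure a choice of isoform was not tested. The mucus protein gene Fcgbp was led by the coding Fcgbp-201 in replicates 2 and 3, with 54.6 and 48.6%. In replicate 1 this form held 28.2%, below the retained-intron form Fcgbp-206 with 38.4%. Ccdc107 showed the widest shift: Ccdc107-206, a short non-coding transcript, held 26.5, 81.0 and 11.0%, and the coding Ccdc107-201 had 81.6, 54.2 and 71.9 TPM. Here the gene's high total in replicate 2 came from 1 short transcript. The others were 9530068E07Rik, Myh1, Cops8, Cog2, Eloc, Bola2 and Pes1, with largest changes in share from 15.1 to 53.6 percentage points.

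At the other end, 14 genes above 50 TPM had a first and second transcript with identical values in each library. In 13 of them the pair stood under 2 gene numbers with 1 name, as in Gstp1, Gstp2, Ppp1ca and Mat2a with 50.0% each, and in Cdk2ap2, Coro1b, Mrps23 and Ranbp1. Such pairs were not read as a balance of isoforms. Among pairs with distinct values, the glycolytic enzyme Pklr came nearest to equality, with 39.6% for each of its leading transcripts, followed by the RNA-binding protein gene Rbm5 with 16.2% for each.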

How the data were processed

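Polyadenylated RNA of 6 whole colons had been sequenced, and the 3 wild-type libraries were used; the 3 columns of the other genotype were not. The deposited table gives, as a signal per transcript, TPM made by the authors with kallisto 0.43.1 against mm10, followed by sleuth, per the submitters' processing notes; no source used here names the transcript set. Of 132639 lines, 1433 repeated a transcript and were dropped, 43008 of the 131206 transcripts had no value, and 1380 of the remaining 88198 had no gene. The others were summed to 30330 gene names. GENCODE M21 (GRCm38) gave positions, types, transcript names and the exon sequences.

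Levels are TPM as deposited. Libraries were compared after division by median-of-ratios factors from genes of at least 1 TPM, on log2(value + 0.5), which understates ratios of low genes. Calculations used Python 3.11.15, pandas 2.3.3 and numpy 2.4.6, and the scaling was tested on simulated data. No significance test was made. Named were the 30 highest nuclear genes, the 25 with the largest ratio between libraries at a mean of at least 5 TPM (predicted genes, pseudogenes and immunoglobulin segments counted only), up to 6 leading members of each list and those at 0, the 10 most equal and the 10 most shifted transcript pairs above 50 TPM, and the members of a list of alternatively spliced genes above 10 TPM; any gene beyond this rule was picked with its values in view. Some genes under this rule are not reported here. The gene lists and the samples were chosen with earlier results of these data known. Alternatives were other thresholds, pseudocounts and scalings, and leaving out each library.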

Additional observations from a re-analysis of the deposited data

How the results depend on the processing

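The count of detected genes stayed within 1.5 times of 14335 under each of the 10 alternatives tried. The share of the 100 highest genes was 29.6% without mitochondrial genes and immunoglobulin segments. The epithelium to smooth muscle ratio was 1.22 from summed TPM. A dominant transcript was found in 72.6% of genes above 50 TPM, in 84.6% when protein-coding transcripts alone were used, and in 37.8% at a share of 75%. The same transcript led in 89.0% of genes above 5 TPM, 93.6% above 50 TPM, 91.9% with protein-coding transcripts alone, and 92.5 to 94.0% when any 1 library was left out, which leaves fewer libraries to differ.

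Variable genes depended most on the settings. Their number was 535 with TPM as deposited, of which 266 were among the 302, and 726 at a mean of at least 1 TPM, 192 at 10 TPM, 1212 with no filter, 165 at 3-fold, and 97 to 269 with 1 library left out. Without replicate 2 the ratios of Lars2, AA474408 and Krtap19-2 fell under 2-fold. Of 38 lists, 3 spanned at least 2-fold, and 1 to 3 did so when a library was left out. The adipocyte list reached 2-fold with TPM as deposited and the mesothelium list at a pseudocount of 0.1.

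No paired analysis was possible because a single group was described and its values come from no test. With 3 libraries and no read depth in the table, an unusual library and an unusual mouse cannot be told apart, and the precision of low values is unknown.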

Other observations

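Clock genes, whose levels follow the time of day, were all detected (15 of 15), and none of the 13 members with at least 5 TPM reached a 2-fold ratio between mice. Of all genes with at least 5 TPM only 2.84% did, so this count is not read as a trait of clock genes. Nr1d1, a repressor of the clock loop, measured 38.9, 54.0 and 59.9 TPM, and Arntl, the activator that it represses, 45.1, 26.9 and 39.8 TPM. Dbp and Per2, clock output and repressor genes, averaged 6.85 and 5.05 TPM. The hour of collection is not given in the labels.

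Immediate early and stress genes differed in their pattern between libraries, with 3 of 15 members of at least 5 TPM at 2-fold or more. Of all genes of at least 5 TPM, 2.84% reached 2-fold. Atf3 had 50.7, 13.96 and 26.9 TPM and Nr4a1 21.4, 5.003 and 8.24 TPM, both highest in replicate 1, whereas Fos was highest in replicate 3. Jund led the list with 161 ± 50.4 TPM (SD, n = 3), and Hsp90aa1 had 113 ± 19.1 TPM.

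Haemoglobin genes mark red blood cells. Hba-a2 measured 75.6, 57.9 and 49.1 TPM and Hbb-bs 48.4, 34.6 and 28.5 TPM, lowest in replicate 3.

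Among genes of at least 50 TPM, the steadiest after scaling was Gabarapl1, an autophagy gene, with 68.2, 47.4 and 66.5 TPM as deposited and a ratio of 1.002 after scaling, followed by Chuk, a kinase of NF-kB signalling, and Capzb, an actin capping protein.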
